A study of Mus musculus with 19 samples.

Results

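Messenger RNA levels of 10 genes of the tumour necrosis factor (TNF) system were followed in circulating leukocytes of DBA/2 and B6 mice. The members were all probes of the array, other than control probes, that the scanner files name for 1 of these 10 genes, which gave 15 of the 41174 probes and 10 of the 27745 names. They cover 5 ligands (Tnf, Lta, Ltb, Tnfsf13b and Tnfsf10), both TNF receptors (Tnfrsf1a and Tnfrsf1b), and Nfkb1, Nfkbia and Tnfaip3 of the NF-kB pathway. All mice were male and received CAWS, a mannoprotein-β-glucan fraction of Candida albicans culture supernatant that induces vasculitis. In this model the disease is lethal in DBA/2 mice and mild in B6 mice, the strain with which it was compared. DBA/2 mice also lack complement component C5. RNA was taken at 0 w, right after the last injection, or else 2 w, 4 w, 8 w and finally 9 w later, from mice that had survived until then, and the labels give no age. No group without CAWS was analysed here, so 0 w is the baseline of each strain. Each week had 2 samples of DBA/2 mice. For B6 mice there were 2 samples at 0 w, at 4 w and again at 8 w, but only 1 for 2 w and 1 for 9 w, which makes 18 samples in 10 groups.

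TNF, which Tnf encodes, is the main ligand of both TNF receptors. The receptor encoded by Tnfrsf1a is made by nearly all cells and carries a death domain, while that encoded by Tnfrsf1b has none and is found mainly on leukocytes and endothelial cells. Both receptors activate NF-kB, a transcription factor that inhibitor proteins hold in the cytoplasm until they are degraded. NF-kB then raises transcription of its own brakes, among them Nfkbia, which encodes the inhibitor IκBα, and Tnfaip3, which encodes the ubiquitin-editing enzyme A20.

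NF-kB binds a short DNA element, the kappa B consensus, and it was looked for on both strands in the 250 bases before the start of each member gene. The RefSeq table (GRCm38.p6) holds such windows for 9 of the 10 genes. The element was found in 3 of these genes, Nfkbia, Tnfaip3 and Ltb. By window, it was found in 3 of the 11 member windows and in 7.25% of the 32851 windows of all genes. Those 3 sequences are shown, because Nfkbia and Tnfaip3 are the feedback genes of the pathway and Ltb was the member whose levels did not overlap between the strains. They run 5′ to 3′ on the strand of the gene, and capitals mark each match.
Nfkbia, chr12:55492648-55492897, minus strand: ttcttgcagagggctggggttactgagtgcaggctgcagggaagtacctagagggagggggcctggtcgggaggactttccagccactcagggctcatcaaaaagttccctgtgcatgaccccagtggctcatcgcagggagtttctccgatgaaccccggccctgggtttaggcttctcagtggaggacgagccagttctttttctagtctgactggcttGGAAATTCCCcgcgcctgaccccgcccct
Tnfaip3, chr10:19015411-19015660, minus strand: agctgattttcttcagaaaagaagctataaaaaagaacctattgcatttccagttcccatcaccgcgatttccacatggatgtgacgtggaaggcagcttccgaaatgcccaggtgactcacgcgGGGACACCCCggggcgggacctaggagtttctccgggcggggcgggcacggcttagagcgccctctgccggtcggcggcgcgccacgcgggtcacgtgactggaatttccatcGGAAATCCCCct
Ltb, chr17:35194257-35194506, plus strand: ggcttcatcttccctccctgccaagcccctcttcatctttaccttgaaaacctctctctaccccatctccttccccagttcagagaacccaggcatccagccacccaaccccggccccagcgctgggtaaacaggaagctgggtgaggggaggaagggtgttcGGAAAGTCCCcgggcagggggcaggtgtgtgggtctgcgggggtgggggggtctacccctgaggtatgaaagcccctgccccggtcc
The first base of the match lay 29 bases before the start in Nfkbia and 87 bases before it in Ltb. In Tnfaip3 there were 2 matches, which began 125 and 12 bases before the start. The windows of Tnf, Lta, Tnfsf10, Tnfsf13b, Tnfrsf1a and Tnfrsf1b, and that of a further Tnfaip3 start, held none of these letters. A match describes the sequence and does not show that NF-kB binds there.

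Levels are given as log2 signal after each array's 75th percentile was set to 0, so that a level of -1 stands 2-fold below that percentile. Differences are given on the same log2 scale with the standard error (SE) of the limma fit, and adjusted p values under 0.05 were called changed. The scanner software calls each spot well above background or not. A probe counted as well above background on an array when at least as many of its spots had that call as lacked it, outliers left out. Of the 15 member probes, 10 were well above background in all 18 samples, and 14 probes of 9 genes entered the test, which needed at least 2 samples. Tnfsf10, which encodes the death ligand TRAIL, did not. From 33.9% to 51.4% of the 43379 spots of an array were well above background. The labels call the samples of a group biological replicates, while the series text says that each mouse was run once or in duplicate. The 2 samples of a group differed by a median of 0.0964 to 0.151 (log2, over 11536 probes with that call on all 19 arrays), and 2 arrays of the same RNA, B6 0 w replicate 2, differed by 0.0985. The p values given here therefore measure a spread that may be mostly technical. Hepatocyte markers were high in B6 mice at 0 w and 8 w, where the summed signal of 13 markers was 32.1 to 51.4 times the array's 75th percentile and 12 to 13 of them were well above background. In the other groups the sum was 0.722 to 1.73, with 3 to 6 markers well above background. The part of this signal in any B6 difference given here was not tested. Leukocytes were captured from whole blood, although a further protocol names mononuclear cells, and 8 to 11 of 12 neutrophil markers were well above background in every sample.

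Of the member probes called in DBA/2 mice, that of Tnfrsf1a had the largest overall change. It was measured by 10 spots of a single probe (mm8 chr6:125327977-125328036, plus strand), all of which were well above background on every array. In DBA/2 mice its level was -1.18 and -1.29 at 0 w, -0.45 and -0.59 at 2 w, 0.20 and 0.12 at 4 w, 0.75 and 0.66 at 8 w, and 0.29 and 0.07 at 9 w. In B6 mice it was -1.05 and -1.01 at 0 w, -0.91 at 2 w, -0.97 and -0.98 at 4 w, 0.07 and 0.02 at 8 w, and -0.12 at 9 w. In DBA/2 mice every later sample lay above both 0 w samples, as for 8.3% of the 21964 tested probes with a value in every sample, and the highest levels were those of 8 w, whereas B6 samples stayed near their 0 w level up to 4 w and were higher at 8 w and 9 w. Against 0 w, the mRNA level in DBA/2 mice had risen 1.64-fold by 2 w (log2 0.71, SE 0.094, adjusted p = 0.00121) and 2.63-fold by 4 w. The rise reached 3.83-fold by 8 w (log2 1.94, adjusted p = 9.65e-07) and was 2.66-fold by 9 w. B6 mice at 4 w had 1.04-fold their 0 w level (adjusted p = 0.819). Their later rise was 2.10-fold by 8 w (adjusted p = 5.32e-05) and 1.88-fold by 9 w, the last on a single sample.

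The overall change was taken as the level averaged over 4 w and 8 w minus that of 0 w. For Tnfrsf1a it was 1.66 (SE 0.0814) in DBA/2 mice and 0.56 (SE 0.0814, adjusted p = 0.00154) in B6 mice. The rise was larger in DBA/2 mice by 1.10 (SE 0.115, adjusted p = 0.000335). Both slides that held DBA/2 arrays of 0 w, 4 w and 8 w gave similar changes in DBA/2 mice, 1.65 and 1.68. The B6 change did not pass with another background correction, normexp (0.40), with scaling to the array median (0.61) or with the slide as a block (0.51). Nor did it pass with B6 pairs averaged and counted once (0.56). Between 2 w and 4 w, the weeks at which no B6 sample carried the hepatocyte signal, the change was also larger in DBA/2 mice, by 0.74 (SE 0.149, adjusted p = 0.00742), and 4 member probes were called in that comparison, Tnfrsf1a, the second Tnfrsf1b probe, the first Nfkb1 probe and Lta, against 19.6% of all probes.

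In DBA/2 mice the neutrophil and monocyte marker sums rose along with the receptor, while the T cell and B cell sums were below their 0 w values at every later week. In B6 mice the neutrophil sum was above its 0 w value at every later week. The B6 monocyte sum was highest at 8 w and 9 w, as Tnfrsf1a was. The B6 samples of 0 w and 8 w carry the hepatocyte signal. The summed signal of 12 neutrophil markers rose in DBA/2 mice from 107 to 108 at 0 w to 282 to 292 at 2 w, 336 to 362 at 4 w and 706 to 786 at 8 w, and was 266 to 325 at 9 w. In B6 mice it was 57.5 to 57.7 at 0 w, 190 at 2 w, 141 to 151 at 4 w, 431 to 434 at 8 w and 225 at 9 w. The sum of 10 monocyte markers rose in DBA/2 mice from 103 to 109 at 0 w to 234 to 260 at 8 w. It was 139 to 147 there at 2 w, 196 to 207 at 4 w and 205 to 236 at 9 w. In B6 mice the monocyte sum was 136 to 147 at 0 w and 115 at 2 w. It was then 152 to 160 at 4 w, 195 to 213 at 8 w and 201 at 9 w. Both cell types express TNF receptors. In these bulk samples a change in the number of such cells and a change in the mRNA of each cell cannot be told apart, and the part of cell numbers in the rise of Tnfrsf1a was not tested.

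**Figure D1:**
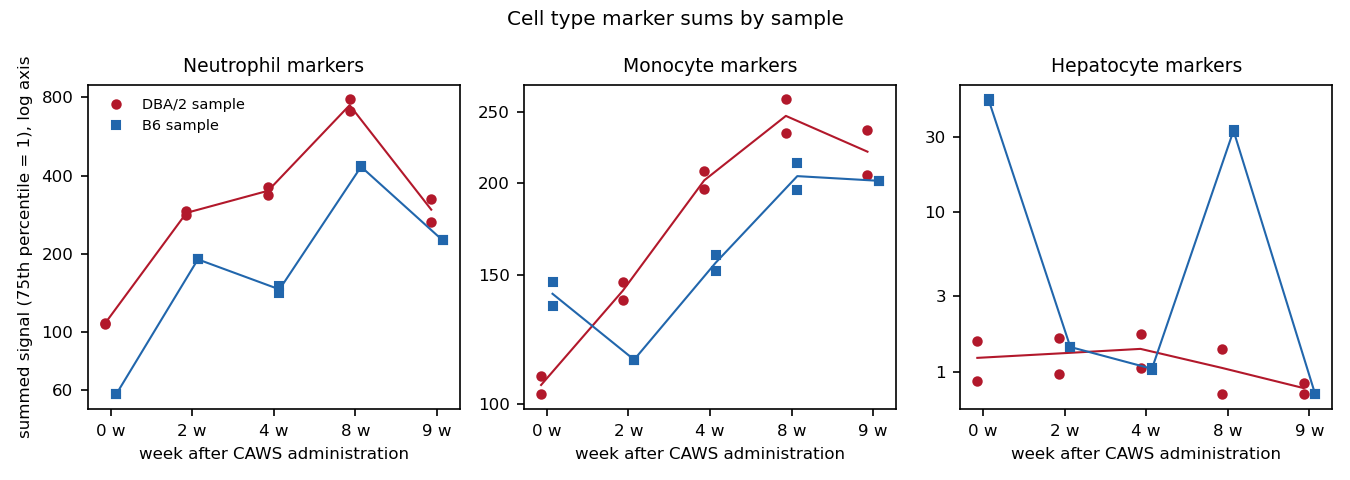
Summed signal of neutrophil, monocyte and hepatocyte marker genes in each sample (y axis, in units of the array's 75th percentile, log axis) by week after CAWS administration (x axis), with lines through the group means. Neutrophil sums were highest at 8 w in both strains, and hepatocyte sums were high only in B6 mice at 0 w and 8 w, at 32.1 to 51.4.

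Tnfrsf1b had 2 probes that went different ways. The first (mm8 chr4:144489650-144490223, minus strand) is a single spot whose positions span 574 bases, and the second (chr4:144481088-144481147) has 10 spots and lies 8.56 kb further toward the 3′ end of the gene. By the rule of the highest mean level the first probe stands for the gene, although the second rests on more spots. With the second probe, levels in DBA/2 mice were -2.30 and -2.35 at 0 w, -2.33 and -2.43 at 2 w, -1.46 and -1.57 at 4 w, -1.14 and -1.24 at 8 w, and -1.35 and -1.36 at 9 w. In B6 mice they were -1.83 and -1.90 at 0 w, -1.70 at 2 w, -2.25 and -2.17 at 4 w, -1.42 and -1.35 at 8 w, and -1.66 at 9 w. DBA/2 samples formed a low group at 0 w and 2 w and a high group from 4 w on, which did not overlap (as for 5.01% of these probes in that direction and 3.54% in the other), while B6 samples were lowest at 4 w.

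By the second probe, Tnfrsf1b in DBA/2 mice differed from 0 w by -0.05 (log2) at 2 w (adjusted p = 0.802) and had risen 1.75-fold by 4 w (log2 0.81, adjusted p = 0.000158). By 8 w the rise was 2.20-fold (log2 1.14, adjusted p = 9.70e-06), and by 9 w it was 1.96-fold. B6 mice went the other way first, with a log2 change of -0.34 by 4 w (adjusted p = 0.0181), and were above their baseline by 8 w (log2 0.48, adjusted p = 0.00226). The overall change was 0.97 (SE 0.0686) in DBA/2 mice and 0.07 (SE 0.0686, adjusted p = 0.591) in B6 mice, and it differed between the strains by 0.90 (SE 0.0971, adjusted p = 0.000388). With normexp the changes were 0.64 in DBA/2 mice and 0.70 between the strains, and neither passed. In the deposited table, which is not scaled between arrays, the strain difference was 0.30 and did not pass (adjusted p = 0.0940). From 2 w to 4 w the strains differed by 1.36 (adjusted p = 8.16e-05). The first probe gave -0.20 (adjusted p = 0.161) and -0.09 (adjusted p = 0.615) for the same overall changes, and with it the 8 w level in DBA/2 mice was lower than at 0 w by 0.41 on the log2 scale (adjusted p = 0.0200). Which probe follows the receptor transcript was not tested.

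**Figure D2:**
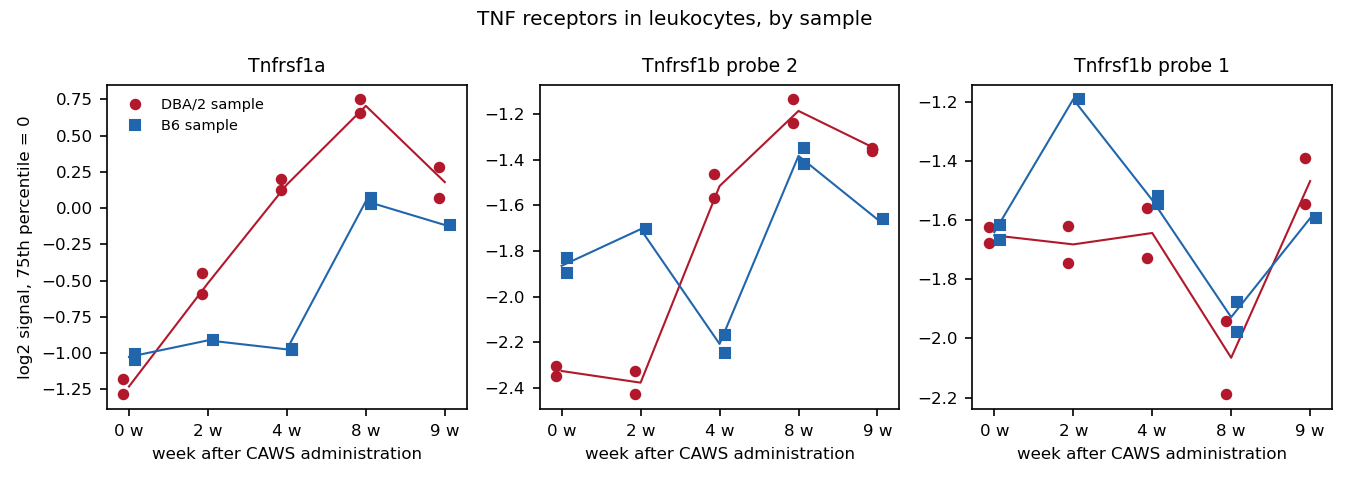
Log2 level (y axis, the array's 75th percentile is 0) of Tnfrsf1a and of both Tnfrsf1b probes in each sample by week after CAWS administration (x axis), with lines through the group means. Tnfrsf1a in DBA/2 mice climbed from -1.18 and -1.29 at 0 w to 0.75 and 0.66 at 8 w, and the 2 Tnfrsf1b probes went different ways at 8 w.

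Among the ligands, Ltb, which encodes lymphotoxin β and is made mainly by lymphocytes, differed between the strains at every week. Its probe (mm8 chr17:34804204-34804263, plus strand, 1 spot) had levels in DBA/2 mice of 4.54 and 4.36 at 0 w, 4.25 and 4.19 at 2 w, 4.41 and 4.27 at 4 w, 4.51 and 4.38 at 8 w, and 3.90 and 3.75 at 9 w. In B6 mice they were 3.65 and 3.51 at 0 w, 3.60 at 2 w, 3.31 and 3.17 at 4 w, 3.47 and 3.36 at 8 w, and 3.24 at 9 w. All 10 DBA/2 samples lay above all 8 B6 samples, which was so for 3.04% of these probes, with a further 2.81% lower in all DBA/2 samples. DBA/2 mice had 1.83-fold the B6 level at 0 w (log2 0.87, SE 0.107, adjusted p = 0.000227) and 2.14-fold that level at 4 w (log2 1.10, adjusted p = 4.67e-05). The log2 difference was 0.61 for 2 w, 1.03 for 8 w and 0.58 for 9 w (adjusted p = 0.0076, 0.000102 and 0.0174). Over 2 w, 4 w and 9 w, the weeks without the hepatocyte signal, the difference was 0.76 (SE 0.0713, adjusted p = 2.70e-05). Strain differences were common on the array, with 32.7% of all probes called for 0 w, 23.9% for 2 w, 32.1% for 4 w, 25.4% for 8 w, 13.3% for 9 w and 31.1% for the mean of 2 w, 4 w and 9 w.

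The overall change of Ltb was -0.06 (SE 0.0926, adjusted p = 0.738) in DBA/2 mice and -0.25 (SE 0.0926, adjusted p = 0.105) in B6 mice. Only the 9 w level in DBA/2 mice was called changed, where it fell by 0.62 on the log2 scale (adjusted p = 0.00222). The sum of 12 T cell markers fell in DBA/2 mice from 19.7 to 20.1 at 0 w to 11.0 to 12.0 at 9 w and was 21.5 to 26.9 in B6 mice over all weeks. The sum of 10 B cell markers was 64.3 to 67.2 in DBA/2 mice at 0 w and 32.3 to 34.7 at 9 w, against 52.4 to 52.5 and 47.8 in B6 mice. The part of lymphocyte numbers in the levels of Ltb was not tested.

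Lta encodes lymphotoxin α, which binds both TNF receptors on its own and forms a membrane complex with lymphotoxin β. Its probe (mm8 chr17:34811382-34811441, minus strand, 10 spots) was dim, and it was well above background in 17 of 18 samples. Levels in DBA/2 mice were -3.58 and -3.83 at 0 w, -4.19 and -4.30 at 2 w, -3.79 and -4.05 at 4 w, -3.86 and -4.01 at 8 w, and -4.26 and -4.25 at 9 w. The lowest B6 level was -3.90, the median -3.80 and the highest -3.41, at 2 w. The called weeks were both of DBA/2 mice, 2 w with a log2 change of -0.54 (adjusted p = 0.0115) and 9 w with -0.56 (adjusted p = 0.00561), and no week was called in B6 mice. The overall change in DBA/2 mice was -0.22 (adjusted p = 0.142). It passed with the slide as a block (adjusted p = 0.0398), and within the slides it was -0.25 and -0.20. Over 2 w, 4 w and 9 w it was lower in DBA/2 mice than in B6 mice (log2 -0.43, SE 0.0754, adjusted p = 0.00176), the opposite direction to its neighbour Ltb. With normexp that difference was -0.16 and did not pass (adjusted p = 1.00). For single weeks the main fit gave -0.84 at 2 w and -0.36 at 9 w, each on 1 B6 sample. At 4 w, with 2 samples of each strain, it gave -0.09 and was not called (adjusted p = 0.633).

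Tnf itself stood at the edge of detection. Its probe (mm8 chr17:34807902-34807961, minus strand, 10 spots) was well above background in 3 samples, all of DBA/2 mice, with 6 of 10 spots in 4 w replicate 1, 9 in 8 w replicate 1 and 5 in 8 w replicate 2. The measured levels in DBA/2 mice were -6.56 and -5.72 at 0 w, -6.97 and -6.70 at 2 w, -5.52 and -5.80 at 4 w, -5.02 and -5.12 at 8 w, and -6.19 and -5.82 at 9 w. The B6 levels ranged from -6.80 to -5.80, and none of the 8 samples was well above background. The nearest was B6 8 w replicate 1, with 4 of 10 spots so called, against the 5 of 10 that sufficed in DBA/2 8 w replicate 2. The fit called Tnf higher in DBA/2 mice at 8 w than at 0 w (adjusted p = 0.0193) and in the overall change (adjusted p = 0.0431), with a strain difference in that change that did not pass (adjusted p = 0.213). Tnf entered the test only through the 3 samples named above, which are of 4 w or 8 w, the higher weeks in these comparisons. The calls are therefore not independent of the filter on dim probes. Without that filter, the limma adjusted p for the change to the mean of 4 w and 8 w was 0.105. No fold is given, because the 8 w mean of -5.07 lay below the dimmest signal that counts as well above background on the 0 w arrays, a mean level of -4.86. The overall call was lost with normexp (adjusted p = 1.00), in the deposited table (0.366), with a floor on dim signals (0.331), with scaling to leukocyte genes (0.142), with DBA/2 samples alone (0.0842) and with the slide as a block (0.0614). It was also lost without DBA/2 0 w replicate 1 (adjusted p = 0.381), and without either DBA/2 sample of 2 w, 4 w or 8 w or either B6 sample of 0 w or 4 w (adjusted p = 0.0542 to 0.0999). The 10 spots of the Tnf probe had an SD within an array of 0.148 to 1.05 on the log2 scale, with a median of 0.495, against a median of 0.0790 for Tnfrsf1a.

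Tnfsf13b encodes BAFF, the survival factor of B cells. Its first probe (mm8 chr8:10035533-10035592, plus strand) was well above background in all 8 later DBA/2 samples but in neither of 0 w. Against 0 w, the group mean was thus at least 2.08-fold higher for 2 w, at least 2.59-fold higher for 4 w, at least 2.38-fold higher for 8 w and at least 3.23-fold higher for 9 w. These bounds are for group means and not for each sample. The dim group counts here as the mean over its samples of the dimmest well-above-background signal of the array, or the probe's own where that is higher. None of these weeks passed the test (adjusted p = 0.264, 0.147, 0.145 and 0.0515), and the samples of a group lay as far apart as -4.0 and -2.35 at 9 w. The overall change did not pass either (adjusted p = 0.0844), but it did with the slide as a block (0.00537), with scaling to the median (0.0482) and without either DBA/2 sample of 9 w (0.0401). The second probe (chr8:10037355-10037414) was well above background in all 18 samples, with levels of -3.85 to -2.84 in DBA/2 mice and -4.11 to -2.70 in B6 mice. Its overall change was -0.06 (SE 0.301, adjusted p = 0.922) in DBA/2 mice, so the second probe did not show the higher later levels of the first. The probe of Tnfsf10 (mm8 chr3:27526987-27527046, plus strand) was well above background in 1 sample, B6 2 w, at a level of -4.62.

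**Figure D3:**
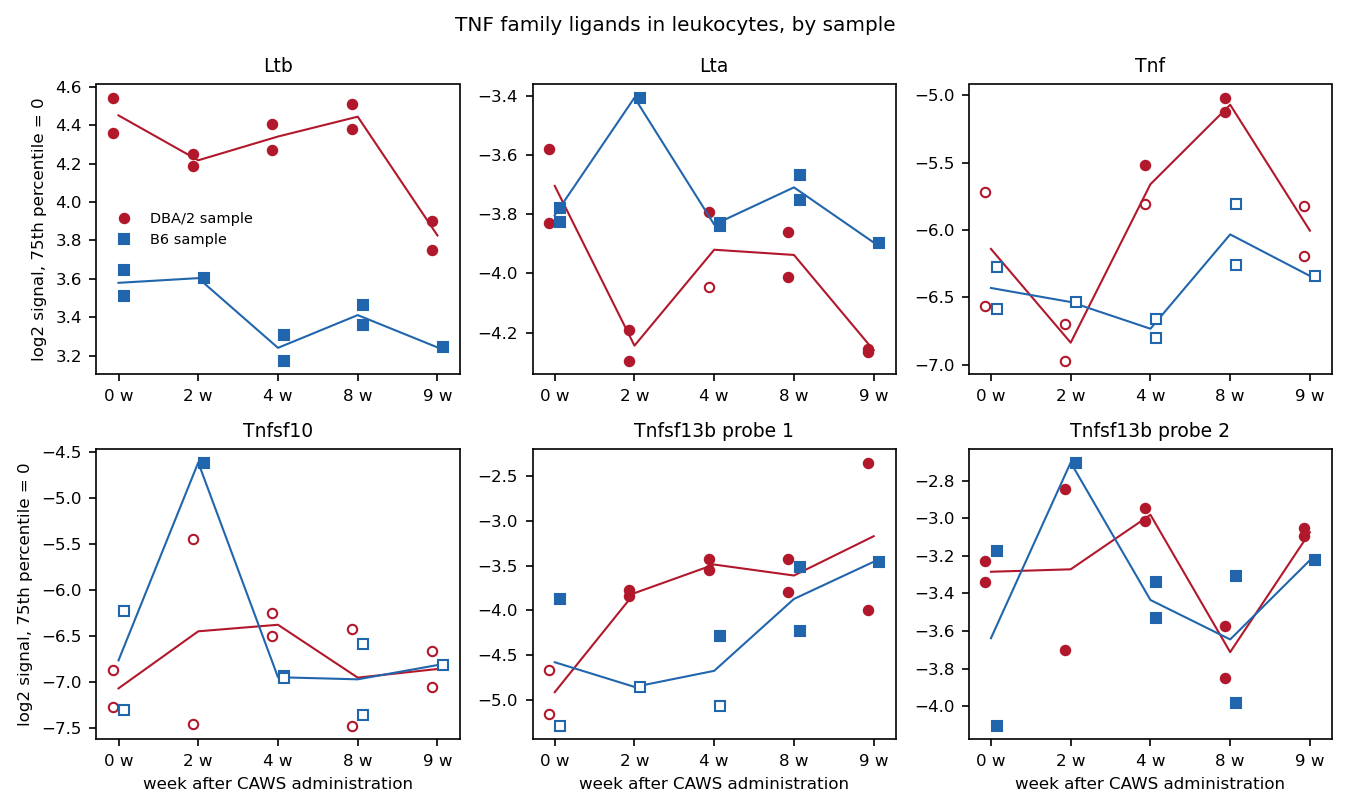
Log2 level (y axis, the array's 75th percentile is 0, a different range in each panel) of the ligand probes in each sample by week after CAWS administration (x axis), with lines through the group means and open symbols for samples not well above background. Ltb in DBA/2 mice lay at 3.75 to 4.54 and in B6 mice at 3.17 to 3.65, and Tnf was well above background in 3 samples only.

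The feedback inhibitor Nfkbia was called changed in B6 mice alone. Its probe (mm8 chr12:56408088-56408583, minus strand, 1 spot) had levels in DBA/2 mice of 2.15 and 2.10 at 0 w, 2.44 and 2.29 at 2 w, 2.09 and 2.14 at 4 w, 2.37 and 2.39 at 8 w, and 2.18 and 2.01 at 9 w. In B6 mice they were 2.29 and 2.19 at 0 w, 2.28 at 2 w, 2.08 at 4 w in both samples, 1.87 and 1.79 at 8 w, and 2.16 at 9 w. The 8 w samples were the lowest in B6 mice and were among the higher ones in DBA/2 mice. The overall change in DBA/2 mice was 0.12 (SE 0.0763, adjusted p = 0.312) and no week was called. B6 mice had a fall of Nfkbia by 8 w (log2 -0.41, adjusted p = 0.00887), and their overall change was -0.29 (adjusted p = 0.0329). The strain difference in that change was 0.41 (SE 0.108, adjusted p = 0.0360). The B6 change did not pass without any single B6 sample of 0 w, 4 w or 8 w, at -0.34 to -0.23, nor did the strain difference without any single sample of those weeks in either strain, at 0.36 to 0.46. Neither passed with normexp (-0.18 and 0.30), with scaling to the median (-0.24 and 0.61), with the slide as a block (-0.38 and 0.50) or with B6 pairs averaged (-0.29 and 0.41). The strain difference rests on the B6 samples with the hepatocyte signal, and from 2 w to 4 w the strains differed by -0.05 (adjusted p = 0.867).

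Tnfaip3 (mm8 chr10:18690604-18690663, minus strand, 1 spot) was not called at any week in DBA/2 mice either, with levels from -2.12 to -1.71 over all weeks and an overall change of 0.12 (SE 0.0861, adjusted p = 0.408). Its level in B6 mice was -1.80 and -1.75 at 0 w, -1.88 at 2 w, -1.39 and -1.45 at 4 w, -2.40 and -2.40 at 8 w, and -1.84 at 9 w. The 4 w level was above that of 0 w (log2 0.36, adjusted p = 0.0386) and the 8 w level was below it (log2 -0.63, adjusted p = 0.00180), and these opposite steps cancel in the overall change of -0.13 (adjusted p = 0.367). DBA/2 mice had less Tnfaip3 than B6 mice at 4 w (log2 -0.30, adjusted p = 0.0419) and more at 8 w (log2 0.34, adjusted p = 0.0335). The strain difference in the overall change was 0.25 (SE 0.122, adjusted p = 0.238).

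Nfkb1 encodes p105, which is processed to the p50 subunit of NF-kB. It had 4 probes, all on the minus strand of mm8 chromosome 3. The first (chr3:135522133-135522194, 10 spots) is the main probe and lies nearest the 3′ end. Levels in DBA/2 mice were -1.09 and -1.20 at 0 w, -1.45 and -1.55 at 2 w, -1.02 and -1.16 at 4 w, -1.13 and -1.26 at 8 w, and -1.15 and -1.27 at 9 w. Only the 2 w samples stood apart, with a log2 change of -0.36 (adjusted p = 0.0279). Its overall change was 0.00 (SE 0.0794, adjusted p = 0.987) in DBA/2 mice and -0.18 (adjusted p = 0.176) in B6 mice, whose change by 4 w was -0.31 (adjusted p = 0.0482).

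Probes 3 and 4 of Nfkb1 lie 26.5 kb and 27.4 kb upstream of the first in the direction of transcription (chr3:135548598-135548657 and chr3:135549567-135549626, 1 spot each), and they moved together. Probe 3 in DBA/2 mice was at -1.60 and -1.75 at 0 w, -2.04 and -2.17 at 2 w, -1.97 and -2.27 at 4 w, -2.51 and -2.86 at 8 w, and -1.82 and -1.97 at 9 w. Every later DBA/2 sample of probe 3 lay below both 0 w samples, as for 14.5% of the tested probes with a value in every sample. This was not so for probe 4, which was at -1.92 and -1.98 at 0 w and at -2.07 and -1.88 at 9 w. The 8 w level was lower than that of 0 w by both probes, with log2 changes of -1.01 for probe 3 (adjusted p = 0.00121) and -0.85 for probe 4 (adjusted p = 0.00207). The overall changes in DBA/2 mice were -0.72 (SE 0.132, adjusted p = 0.00368) and -0.63 (SE 0.122, adjusted p = 0.00502), against 0.21 and 0.28 in B6 mice, which did not pass. With normexp (-0.47 and -0.40) and with scaling to the median (-0.48 and -0.39) the DBA/2 changes did not pass either. The strain differences in the change were -0.94 (SE 0.187, adjusted p = 0.0107) and -0.91 (SE 0.173, adjusted p = 0.00849). Neither passed with normexp (-0.40 and -0.29) or with scaling to the median (-0.74 and -0.71), and that of probe 3 did not pass without DBA/2 0 w replicate 1 (-0.86) or B6 0 w replicate 2 (-0.82). With B6 pairs averaged neither passed (adjusted p = 0.108 and 0.0993), and with the slide as a block probe 4 did not (-0.85, adjusted p = 0.0810). Nor were they called without the weeks of the hepatocyte signal, since from 2 w to 4 w the strains differed by 0.19 (adjusted p = 0.690) and -0.18 (adjusted p = 0.677). At 0 w, DBA/2 mice had the higher levels, by 0.74 (adjusted p = 0.00492) and 0.54 (adjusted p = 0.0160). Probe 2 (chr3:135555618-135555677) was well above background in 6 samples, and none of its tests passed in the main fit. Its DBA/2 change passed with scaling to leukocyte genes (-0.78, adjusted p = 0.0131) and without DBA/2 4 w replicate 1 (-0.67). In the deposited table its strain difference passed for the change (-0.97) and for the level over 2 w, 4 w and 9 w (0.73). The probes of Nfkb1 thus disagree, and no single direction is given for the gene.

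**Figure D4:**
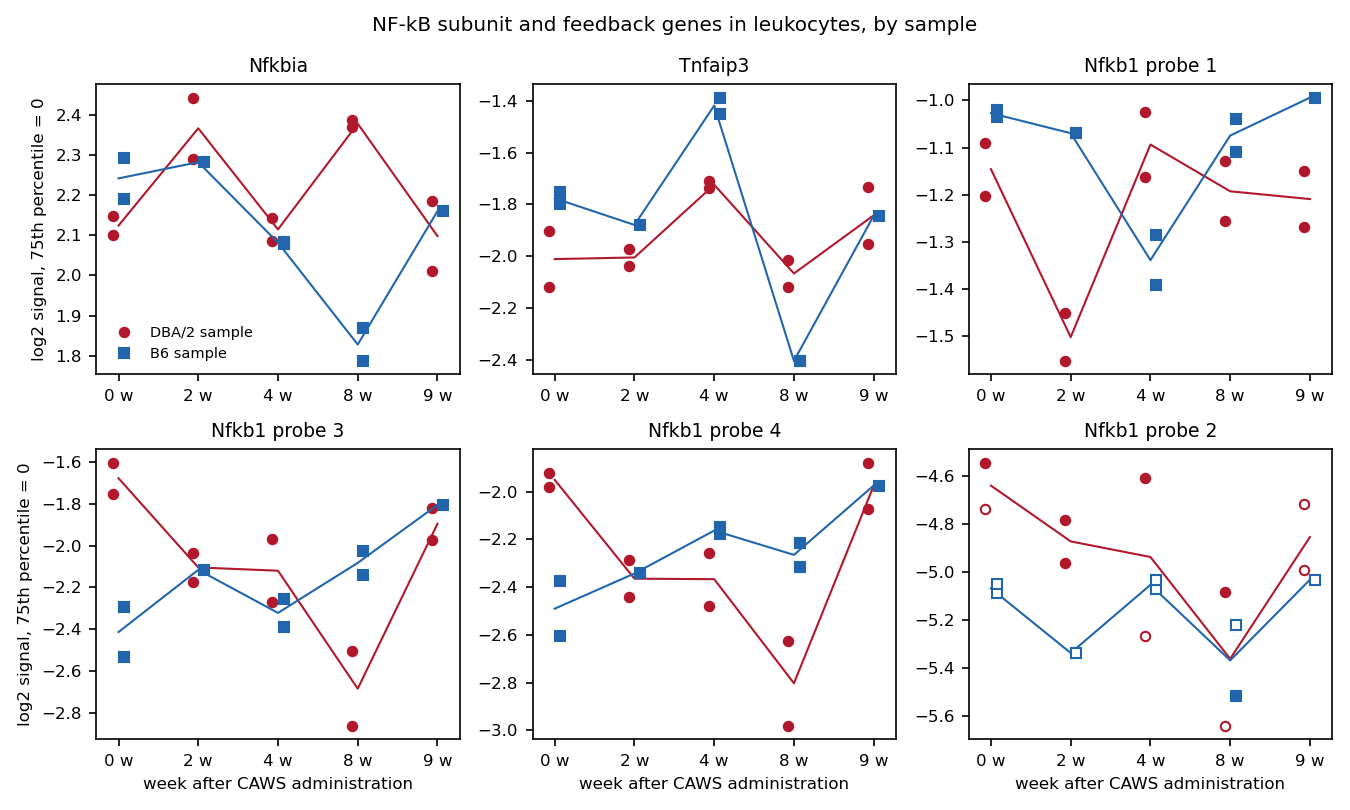
Log2 level (y axis, the array's 75th percentile is 0, a different range in each panel) of Nfkbia, Tnfaip3 and the 4 Nfkb1 probes in each sample by week after CAWS administration (x axis), with lines through the group means and open symbols for samples not well above background. Probes 3 and 4 of Nfkb1 changed by -1.01 and -0.85 in DBA/2 mice at 8 w, and probe 1 by -0.05.

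Over all members, calls were read against those of the array as a whole. Of the 14 tested member probes, 5 were called in the overall change of DBA/2 mice, with Tnf, Tnfrsf1a and the second Tnfrsf1b probe higher and 2 Nfkb1 probes lower, against 22.9% of all probes. Tnf entered the test only through DBA/2 samples of 4 w and 8 w, so its calls are not independent of the filter on dim probes. In B6 mice 2 were called, Tnfrsf1a higher and Nfkbia lower, against 15.0%. The strain difference in the change was called for 5, against 13.2%. For single weeks of DBA/2 mice, 3 member probes were called for 2 w (15.7% of all probes), 2 for 4 w (14.8%), 6 for 8 w (24.0%) and 4 for 9 w (27.7%). For B6 mice the counts were 0 by limma for 2 w (13%, with 2 member probes at an unadjusted p under 0.05), 3 for 4 w (15.7%), 4 for 8 w (21.2%) and 1 for 9 w (9.34%). Between the strains, 4 member probes were called for 0 w, 6 for 2 w, 5 for 4 w, 7 for 8 w, 1 for 9 w and 3 for the mean of 2 w, 4 w and 9 w, where the share of all probes was as given with Ltb. With so few member probes, these counts are a description. The median member probe changed by -0.03 in DBA/2 mice and by 0.04 in B6 mice, and the median of all probes tested by -0.14 and -0.08.

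**Figure D5:**
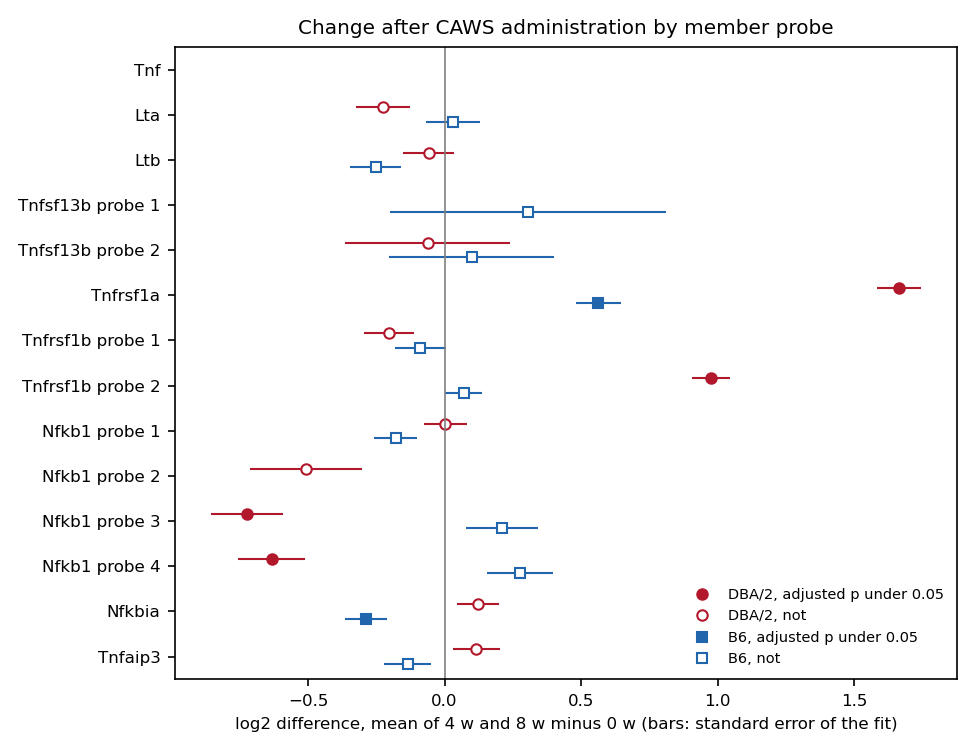
Change from 0 w to the mean of 4 w and 8 w for each tested member probe (x axis, log2 difference with the standard error of the fit as bars) in DBA/2 mice (circles) and B6 mice (squares), filled where the adjusted p was under 0.05. No point is drawn for a strain in which neither 0 w sample was well above background, as for Tnf. Tnfrsf1a rose by 1.66 in DBA/2 mice and 0.56 in B6 mice, and Nfkbia and Tnfaip3 stayed within 0.29 of 0 in both strains.

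The other genes of the pathway were taken from lists drawn up from general knowledge, but with earlier results of these data known. The counts that follow are therefore a description. Each gene was taken by its probe with the highest mean level. Of 101 listed genes 82 were tested. In the overall change of DBA/2 mice 28 rose and 8 fell, against 9.8% and 13.1% of all probes, and in B6 mice 15 rose and 10 fell, against 7.28% and 7.73%. The change was higher in DBA/2 mice for 14 and lower for 3 (6.48% and 6.73% of all probes), and over 2 w, 4 w and 9 w the level was higher in DBA/2 mice for 25 and lower for 13 (16.6% and 14.5%). With normexp the strain difference in the change was called for 1 gene in place of 17.

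Of the genes that NF-kB is known to induce, 12 of 16 tested rose in DBA/2 mice and 0 fell at the adjusted threshold of limma, against 9.8% and 13.1% of all probes, with a median change of 0.84 against -0.14 over all probes. Il1b, which encodes interleukin-1β, rose by 2.55 (SE 0.0732, adjusted p = 1.09e-07), Tnfaip2, a gene first found as a TNF-induced transcript, by 1.69 (SE 0.0677, adjusted p = 3.01e-07), and Ier3, an early response gene, by at least 1.89-fold at 8 w, since it was not well above background at 0 w (adjusted p of the overall change = 0.00150). In B6 mice 5 of the 16 rose and 3 fell, against 7.28% and 7.73% of all probes, with a median of 0.41, and Il1b rose there too, by 2.40. Against 6.48% and 6.73% of all probes, the change was higher in DBA/2 mice for 7 of these genes and lower for 0 by limma. Among these, the chemokine genes Ccl3 and Ccl4 had strain differences of 1.20 (SE 0.136, adjusted p = 0.000519) and 1.17 (SE 0.175, adjusted p = 0.00233). Neutrophils and monocytes express many of these genes, and the part of the rising neutrophil and monocyte markers in these counts was not tested.

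Of the other inhibitors and feedback genes, 6 of 15 tested rose in DBA/2 mice and 0 fell by limma, with a median of 0.16. Of all probes 9.8% rose and 13.1% fell. The largest rises were those of Zfp36, whose protein destabilises Tnf mRNA, by 1.17 (SE 0.0696, adjusted p = 3.45e-06), Tnip2, an A20-binding protein gene, by 0.85, and Bcl3, an atypical IκB gene, by 0.70. In B6 mice 5 rose and 2 fell, against 7.28% and 7.73% of all probes. The strain difference was called for 2 of the 15, Tnip1, which encodes another partner of A20 (0.58, adjusted p = 0.0104), and Otud7b, which encodes a deubiquitinase (-0.40, adjusted p = 0.0182). This count is close to the 13.2% of all probes called in that comparison. Group means of Tnip1 at 0 w, 4 w and 8 w were -0.56, -0.44 and -0.59 in DBA/2 mice. In B6 mice they were -0.53, -0.97 and -1.15. Those of Otud7b were 0.71, 1.04 and 0.49 in DBA/2 mice and 0.96, 1.49 and 1.33 in B6 mice. For both genes the larger change was that of B6 mice, whose 0 w and 8 w samples carry the hepatocyte signal.

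Of the other TNF family ligands 5 of 13 were tested, and against 9.8% of all probes 3 of them rose in DBA/2 mice. These were Tnfsf14 (LIGHT), by 1.51 (SE 0.0556, adjusted p = 1.96e-07), Tnfsf13 (APRIL), by 1.49 (SE 0.135, adjusted p = 5.66e-05, with 1 of the 2 samples well above background at 0 w), and Fasl, the ligand of the death receptor Fas, by 0.94 (SE 0.0995, adjusted p = 0.000146). Tnfsf14 rose in B6 mice as well, while Fasl changed there by -0.92 (adjusted p = 0.000289), and the strain difference for Fasl was 1.86 (SE 0.141, adjusted p = 5.44e-05). For Tnfsf13 it was 1.32 (SE 0.190, adjusted p = 0.00196).

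Among the other TNF receptor family members 20 of 26 were tested, of which 3 rose and 6 fell in DBA/2 mice, with a median of -0.33. Of all probes 9.8% rose and 13.1% fell. Ltbr, the receptor of the lymphotoxin complex and of LIGHT, rose by 1.72 (SE 0.0733, adjusted p = 4.45e-07), Tnfrsf21, a death receptor gene, by 1.06 (1 of the 2 samples well above background at 0 w), and Fas by 0.85. Among those that fell were Tnfrsf13c, the BAFF receptor of B cells, by 0.75 (SE 0.0681, adjusted p = 5.70e-05), Tnfrsf14, a receptor of LIGHT, by 0.66, and Cd27, a costimulatory receptor of lymphocytes, by 0.59. Over the same weeks the B cell marker sum was 38.0 to 50.2 in DBA/2 mice, against 64.3 to 67.2 at 0 w, and its part in the fall of Tnfrsf13c was not tested. The strain difference was called for Ltbr (1.28, SE 0.104, adjusted p = 7.79e-05), Tnfrsf13c (-0.61, adjusted p = 0.00319) and Tnfrsf14 (-0.60, adjusted p = 0.0268). Of the 20 tested, 1 was thus higher and 2 lower, against 6.48% and 6.73% of all probes. The strain difference of Tnfrsf13c turned to 1.10 (adjusted p = 0.000273) between 2 w and 4 w. Over that step the B cell sum of B6 mice went from 67.3, in 1 sample, to between 40.8 and 42.5. In DBA/2 mice the B cell sum was 34.1 to 36.2 at 2 w and 49.0 to 50.2 at 4 w. The part of these sums in the strain difference was not tested.

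Of the adaptors and kinases below the receptors, 3 of 23 tested rose and 2 fell in DBA/2 mice, which is close to the 22.9% of all probes called in that comparison, with a median of -0.08. Ripk1, a kinase recruited to the receptor that Tnfrsf1a encodes, rose by 1.15 (SE 0.190, adjusted p = 0.00214), Adam17, the protease that sheds TNF and its receptors, by 0.58, and Rnf31, of the linear ubiquitin ligase, by 0.34. Tab1, a TAK1-binding protein gene, fell by 0.61 and Traf5, an adaptor gene, by 0.38 on the log2 scale. Ripk1 was the one gene of this list called between the strains, with a difference of 1.47 (SE 0.268, adjusted p = 0.00672). Of the 3 other NF-kB subunits tested, Relb alone was called, with a rise of 0.24 (adjusted p = 0.0324) in DBA/2 mice and a strain difference of 0.44 (adjusted p = 0.0166). In the strain difference 13.2% of all probes were called.

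At 2 w and 4 w no B6 sample carried the hepatocyte signal. Over that step the strain differences of Ripk1 (0.79), Tnfrsf14 (-0.24), Relb (0.35) and Tnip1 (0.38) were not called. Several of the list calls also rested on single samples. The strain difference of Tnfrsf14 did not pass without B6 4 w replicate 1, B6 8 w replicate 2, B6 0 w replicate 2, either DBA/2 sample of 0 w, DBA/2 4 w replicate 2 or DBA/2 8 w replicate 2 (-0.63 to -0.46). That of Otud7b did not pass without any single 0 w sample (-0.40), that of Relb without B6 or DBA/2 0 w replicate 2 (0.41) and that of Tnip1 without B6 0 w replicate 1 (0.52). The DBA/2 change of Relb did not pass without either sample of 0 w or 4 w or 8 w replicate 2 (0.21 to 0.27), those of Rnf31 (0.27) and Traf5 (-0.29) without 0 w replicate 1, and that of Adam17 without 0 w replicate 2 (0.45). With the slide as a block the strain differences of Tnfrsf14 (-0.58), Otud7b (-0.37), Relb (0.51) and Tnip1 (0.69) did not pass, nor did they, or those of Ripk1 and Tnfrsf13c, with B6 pairs averaged (adjusted p = 0.0753 to 0.171).

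Normexp took away most of the list calls. With it the DBA/2 changes of Ripk1 (0.35), Tnfsf13 (0.52), Fasl (0.37), Tnfrsf21 (0.29), Tnip2 (0.33), Relb (0.08), Adam17 (0.39), Rnf31 (0.24), Fas (0.63), Cd27 (-0.43), Tnfrsf14 (-0.54), Tab1 (-0.41) and Traf5 (-0.31) did not pass, nor did that of Ier3 (adjusted p = 1.00). Nor did the strain differences of Fasl (0.93), Tnfsf13 (0.60), Ripk1 (0.80), Ccl3 (1.17), Ccl4 (0.99), Tnfrsf13c (-0.48), Tnfrsf14 (-0.25), Relb (0.26), Tnip1 (0.52) and Otud7b (-0.41). With scaling to the median the DBA/2 changes of Cd27 (-0.35), Tnfrsf14 (-0.42), Tab1 (-0.37) and Traf5 (-0.14) and the strain differences of Tnfrsf13c (-0.41), Tnfrsf14 (-0.40), Otud7b (-0.20) and Relb (0.64) did not pass.

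The genes whose pattern over the 10 group means was most like that of Nfkbia were Olfr536 (Pearson's r = 0.903), Mob3b (0.885) and a transcript named BU962533 (0.881). For Tnfaip3 they were Fzd4 (0.908), Bgn (0.901) and Olfr345 (0.901). Of these 6 only the probe of Olfr345 was well above background in all 18 samples, and the others were so in 2 to 12 samples. Each r describes 10 points that share arrays and scaling.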

How the data were processed

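The authors labelled leukocyte RNA isolated with LeukoLOCK with Cy3 after oligo-dT priming, hybridized it to single-color Agilent arrays (G4122F) and extracted the image with Agilent Feature Extraction 9.5.3.1, per the labels. The deposited files give for each spot a processed signal, an intensity on a linear scale from which the software subtracted the background and spatial trends, together with its mean and background pixel intensity. They also hold other columns, deposited as calls of the software for spots well above background or marked as outliers. A deposited series table gives this intensity as the mean over the spots of each probe and served, unscaled, as an alternative.

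Outlier spots were left out, the spots of a probe averaged, and log2 signals scaled to each array's 75th percentile over 11536 probes that passed the background call on all 19 arrays. Both arrays of B6 0 w replicate 2 were averaged. For the 22939 probes that passed this call in 2 or more of 18 samples, limma 3.58.1 (R 4.3.3) fitted 1 mean per group over the 10 groups (8 residual degrees of freedom, prior 1.37). Benjamini-Hochberg adjustment covered all these probes, and adjusted p values under 0.05 were called. The single samples of B6 mice (2 w, 9 w) are taken to vary as other groups do. The number of arrays limits the precision. The procedure was tested on simulated data.

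The members, the lists and the comparisons were chosen with earlier results of these data known. Named genes are all member probes, for each list up to 3 risen and 3 fallen genes in DBA/2 mice and up to 2 in each direction in the strain difference, and the 3 genes most like Nfkbia and Tnfaip3. For Tnf, well above background in too few samples, none are named. Marker lists of splenic or tissue macrophages, NK cells, platelets and erythroid cells had summed signals of 2.16 to 6.96, 3.73 to 7.81, 130 to 497 and 1696 to 4219 over all samples. Alternatives were other background corrections, scalings (among them a list of 28 leukocyte probes), filters and blocks, each strain alone, array weights and each sample left out in turn. The 4 w against 2 w comparisons and the averaging of B6 pairs were added after seeing the data. Probe positions (mm8) were taken from the deposited files, and promoter windows are from RefSeq (GRCm38.p6). Symbols of list genes come from the accession, the files' gene name or a synonym in a RefSeq gene table.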

Additional observations from a re-analysis of the deposited data

Results flagged for a closer look

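The change from 0 w to the mean of 4 w and 8 w differed between the strains, by the interaction term of the limma fit, for 5 member probes. The value of the DBA/2 change less the B6 change was 1.10 for Tnfrsf1a, 0.90 for the second Tnfrsf1b probe, -0.94 and -0.91 for Nfkb1 probes 3 and 4, and 0.41 for Nfkbia. Among the genes named from the pathway lists it was 1.86 for Fasl, 1.32 for Tnfsf13, 1.28 for Ltbr, -0.61 for Tnfrsf13c, -0.60 for Tnfrsf14, 1.47 for Ripk1, 0.44 for Relb, 0.58 for Tnip1, -0.40 for Otud7b, 1.20 for Ccl3 and 1.17 for Ccl4. All of these use the B6 samples of 0 w and 8 w, which carry the hepatocyte signal.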

How the results depend on the processing

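The member calls depended most on the background correction, the scaling and the B6 comparisons. In DBA/2 mice 5 member probes were called changed, against 1 with normexp and 9 with scaling to the leukocyte list. Counted by gene, 2 were called by the main probe and 4 by the mean of a gene's probes. In B6 mice the count of 2 became 0 with normexp, 1 with quantile normalization, 0 with the median, 1 with the 75th percentile over all probes, 5 with the leukocyte list, 8 with the deposited table, 1 without a filter on dim probes, 0 with the slide block, 1 with B6 samples alone and 0 with B6 pairs averaged. It was 1 to 2 with a sample left out. The strain difference in the change was called for 5 member probes, against 1 with normexp, 2 with the median, 8 with the deposited table, 3 with the slide block, 2 with B6 pairs averaged and 3 to 5 with a sample left out (3 without DBA/2 0 w replicate 1 and without B6 0 w replicate 2). Over 2 w, 4 w and 9 w the count of 3 became 6 with the leukocyte list and 12 with the deposited table. For the pathway lists, the 36 genes called in DBA/2 mice became 11 with normexp, and the 17 called between the strains became 1 with normexp, 11 with the median, 41 with the deposited table, 11 without a filter and 9 with B6 pairs averaged. The causes were not tested, except that the deposited table is not scaled between arrays and moved the median of all probes in the strain difference of the change to -0.64. The leukocyte list moved the median in DBA/2 mice to -0.42, and normexp that of the strain difference to 0.22.

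Of the values called under the main or the other setting, 23 changed sign, 14 of them in the deposited table, and 68 others that neither setting called also did, 14 of them with normexp, 10 with the leukocyte list and 8 from 2 w to 4 w. For the change in B6 mice it gave 0.44 for the first Tnfrsf1b probe, 0.34 for the first Nfkb1 probe, 0.24 for Nfkbia and 0.39 for Tnfaip3. For the strain difference in the change it gave -0.44 for the first Nfkb1 probe, -0.195 for Nfkbia, -0.35 for Tnfaip3, -0.16 for Relb and -0.020 for Tnip1. Over 2 w, 4 w and 9 w it gave 0.052 for Lta, 0.32 for the first Tnfrsf1b probe, 0.35 and 0.41 for the Nfkb1 probes 1 and 4, and 0.34 for Tnfaip3. With the leukocyte list, the change in DBA/2 mice was -0.27 for the first Nfkb1 probe and -0.036 for Relb. Comparing 4 w with 2 w, B6 mice gave -0.062 for Tnfrsf1a, -0.50 for the second Tnfrsf1b probe and 0.46 for Tnfaip3, and the strain difference was 0.75 for Lta, 0.19 for Nfkb1 probe 3, -0.051 for Nfkbia and 1.10 for Tnfrsf13c.

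The rise of Tnfrsf1a in DBA/2 mice was 1.39 to 1.91 and its strain difference 0.50 to 1.30 under all alternatives run. The higher level of Ltb in DBA/2 mice over 2 w, 4 w and 9 w was 0.63 to 1.25. Of the other values, 2825 kept their side of the threshold, 159 lost and 36 gained a call. The correlation of same-numbered samples was above 0.1 for 12 of 28 pairs of groups (-0.011 to 0.455, median 0.080), not for every pair, so the numbers were not taken to pair the samples, although the 2 DBA/2 samples of each week lay on different slides, with replicate 1 of 0 w, 2 w, 4 w and 8 w on one and replicate 2 on another. With the replicate block, 7, 3, 5 and 3 member probes were called in these 4 comparisons, and 39 and 24 list genes. The replicate block added the changes of Lta (adjusted p = 0.0469) and the first Tnfsf13b probe (0.0340) in DBA/2 mice and of Ltb in B6 mice (0.00687). Tnf and Tnfsf10 lay too near background for a size to be given.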
